A study of Mus musculus with 12 samples.

Results

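Tight junctions seal the space between neighbouring epithelial cells. Claudins are their 4-pass membrane proteins and set which ions cross the seal, occludin (Ocln) is a second kind of 4-pass junction protein, and Tjp3 (also called ZO-3) is a scaffold that binds the tails of both and links them to actin. Some claudins tighten the seal and others form pores, so a cell's barrier depends on which claudins it makes as much as on how much. Embryonic stem cells (ESCs) cultured with Matrigel polarise into rosettes, and a lumen then opens at the shared apical side as apical membranes separate (hollowing). The genes described here are a fixed list of 9 of the 35580 genes in the deposited tables, namely the 7 claudins Cldn3, Cldn4, Cldn5, Cldn6, Cldn7, Cldn9 and Cldn12, together with Ocln and Tjp3. All 9 were among the 17424 genes that passed the filter on low counts.

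The libraries were made from mouse ESCs of the R1 line (WT) and from CIDEA KO cells (Cidea -/-), a single clone of that line in which CRISPR-Cas9 had deleted the locus of Cidea, a lipid droplet protein. Cells of each genotype were taken as ESCs in serum with LIF (0 h), and as spheroids after 24 h and 48 h of Matrigel culture with serum and without LIF. For molecular experiments the methods describe cells seeded on top of a Matrigel coat, with Matrigel added to the medium. There were 2 libraries in each of the 6 groups and 12 in all, and since all KO libraries come from 1 clone, effects of the deletion and of the clone cannot be told apart. The libraries of a group were described as independent samples and biological replicates, without saying whether they came from separate cultures, so p-values measure the spread between these samples only.

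The libraries held 28998188 to 38509860 estimated counts. A count of 3 then corresponds to 0.0779 to 0.1035 CPM (counts scaled to the library's total), and this lower limit takes only counting error into account. Cidea itself had 20 to 117 counts in the 6 WT libraries and 0 counts in each of the 6 KO libraries. Replicate 1 of KO spheroids at 24 h stood apart, with counts for 15650 genes where the other libraries had 17730 to 19944, and results that rest on it are given with that remark. The 6 pluripotency markers, Pou5f1 among them, summed to between 2133.1 and 3762.9 TPM (a level scaled for transcript length and the library's total) in every library. The sum over 8 trophectoderm markers was 16.2 to 27.5 TPM, with Tfap2c at 3.84 to 22.8 TPM, Eomes at 2.96 to 9.46 TPM and Cdx2 at 0.0478 to 1.044 TPM. The sum over 9 primitive endoderm markers was 20.8 to 65.0 TPM. Gata6 was at no more than 1.227 TPM, so other markers of that list made up most of the sum, and only 1 of the 9 stayed under 1 TPM in every library. The 7 endothelial markers summed to 81.0 to 129.0 TPM, mostly Pecam1, which ESCs also express, and Egfl7, while Emcn was at 0 in all libraries and Cdh5 at no more than 0.344 TPM. The RNA was taken from whole cultures, so fewer cells of a type and less RNA per cell cannot be told apart.

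Differences were tested by edgeR's quasi-likelihood test over all 17424 genes with Benjamini-Hochberg adjustment, and a gene was called when its adjusted p was under 0.05. Between 0 h and 48 h, 5 of the 9 genes were called in WT cells (3 higher and 2 lower), and 23.6% of all genes tested were called in that comparison. In KO cells 6 of the 9 were called (4 higher and 2 lower), beside 25% of all genes. Cldn6, Cldn7 and Cldn12 rose and Cldn4 and Tjp3 fell in both genotypes, and Ocln rose in KO cells, without a call for a difference between the genotypes. Of all genes, 11.1% were called higher and 12.5% lower in WT, and 12.1% higher and 12.8% lower in KO cells. The median log2 fold change of the 9 genes was 0.65 in WT and 0.77 in KO cells, in each case the value of Ocln. That of all genes was 0.015 and 0.01. The 9 genes and the further lists below were chosen with earlier results of these data known. Their shares and medians therefore describe them and do not test them against all genes.

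**Figure D1:**
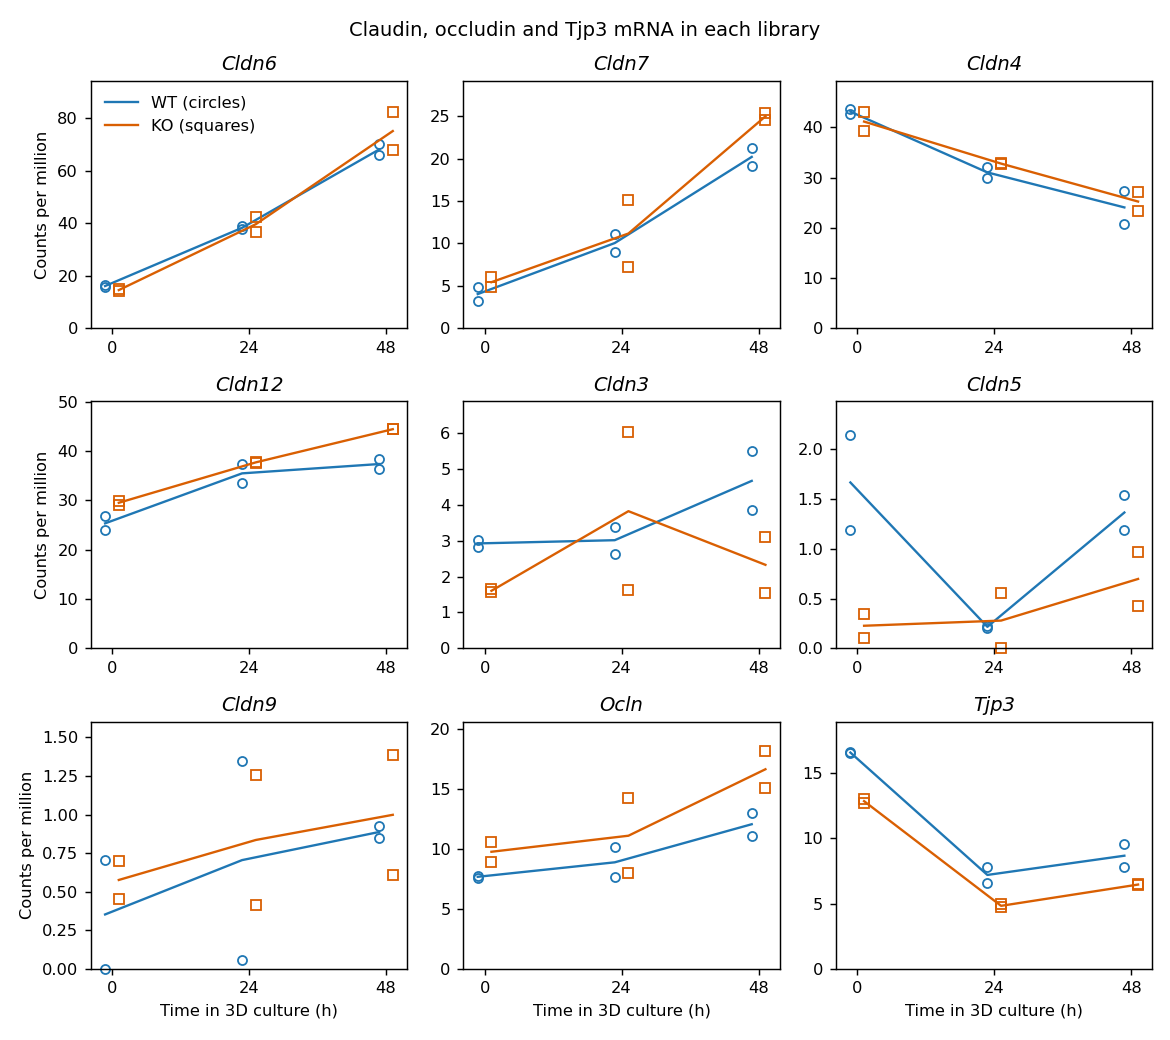
CPM of the 9 genes (y axis, from 0, a separate scale for each gene) against the time in 3D culture in hours (x axis), with a point for each library, circles for WT and squares for CIDEA KO, and lines through the means of 2 libraries. Cldn6 and Cldn7 climb and Cldn4 declines in both genotypes, Tjp3 drops by 24 h, and Cldn5 and Cldn9 stay under 2.2 CPM.

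Cldn6, a claudin of embryonic epithelia that is largely silent in adult tissue, showed the clearest rise. The gene lies on the forward strand of chromosome 17 (GRCm38, 23679249 to 23682446). In WT cells its level was 16.25 and 15.74 CPM at 0 h, 37.7 and 38.7 CPM at 24 h, and 70.3 and 65.8 CPM at 48 h. KO cells had 14.1 and 14.8 CPM at 0 h, 42.4 and 36.7 CPM at 24 h, and 67.99 and 82.2 CPM at 48 h. No library of one time overlapped those of another. From 0 h to 48 h Cldn6 rose 4.26-fold in WT (log2 fold change 2.09, standard error 0.13, adjusted p = 2.9e-10 by edgeR) and 5.2-fold in KO cells (2.38, standard error 0.131, adjusted p = 4.07e-11). Both steps were called in both genotypes, with log2 fold changes of 1.26 (WT) and 1.45 (KO) by 24 h and a further 0.83 and 0.92 from 24 h to 48 h. These 6 calls held under all 19 alternative settings, which included leaving out each library.

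Cldn7, a claudin of the lateral membrane of epithelia that binds Epcam, lies on the forward strand of chromosome 11 (69964779 to 69967885). It was at 3.16 and 4.83 CPM in WT cells at 0 h, 11.1 and 8.94 CPM at 24 h, and 19.2 and 21.2 CPM at 48 h. KO cells had 6.01 and 4.79 CPM at 0 h, 15.2 and 7.14 CPM at 24 h, and 24.6 and 25.4 CPM at 48 h. The time points did not overlap within a genotype, but the 24 h KO libraries were far apart, the higher being replicate 1. Over 48 h Cldn7 rose 5.05-fold in WT (log2 fold change 2.34, standard error 0.308, adjusted p = 1.27e-05) and 4.62-fold in KO cells (2.21, standard error 0.303, adjusted p = 1.78e-05), and these 2 calls held under all 19 alternatives.

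The single steps of Cldn7 were less firm. All 4 were called, with adjusted p of 0.00498 and 0.0185 by 24 h and of 0.0368 and 0.0131 for the second step, WT before KO. In WT the first call was lost without replicate 1 at 0 h (adjusted p = 0.0799) or replicate 1 at 24 h (0.0627), and in KO cells without replicate 1 (0.051) or 2 (0.174) at 0 h or without replicate 1 at 24 h, where the log2 fold change fell from 1.04 to 0.40 (adjusted p = 0.446). In WT the second call was lost without any 1 of the 4 WT libraries at 24 h and 48 h (adjusted p of 0.124 to 0.25) or either KO library at 48 h (0.0518 and 0.0509). In KO cells it was lost without replicate 2 at 24 h (0.0577) or either library at 48 h (0.0776 and 0.0659). None of the 4 steps was called with average transcript lengths as offsets (adjusted p of 0.133 to 0.444) or by limma on log2(TPM + 1) (0.143 to 0.443), and neither KO step in a fit limited to its own groups (0.134 and 0.0963). The part of the high value in replicate 1 of the 24 h KO spheroids in these steps was otherwise not tested.

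Cldn12, which lacks the tail motif by which other claudins bind ZO proteins, lies on the reverse strand of chromosome 5 (5489537 to 5514958). Its CPM were 23.9 and 26.8 at 0 h, 33.6 and 37.4 at 24 h, and 38.4 and 36.3 at 48 h in WT cells. In KO cells they were 29.1 and 29.9 at 0 h, 37.6 and 37.9 at 24 h, and 44.4 and 44.5 at 48 h. In both genotypes the 2 libraries at 0 h lay below all 4 libraries of the spheroids. Cldn12 rose 1.47-fold in WT (log2 fold change 0.56, standard error 0.125, adjusted p = 0.00231) and 1.51-fold in KO cells (0.59, standard error 0.124, adjusted p = 0.00125). By 24 h it had risen in WT (0.49, adjusted p = 0.0108, lost without replicate 1 at 0 h at 0.105 or replicate 2 at 24 h at 0.117). The 24 h step in KO cells was 0.35 and not called (adjusted p = 0.054 by edgeR), whereas DESeq2 called it (0.0408). When average transcript lengths entered the fit as offsets, the change over 48 h in KO cells was 0.10 (adjusted p = 0.805), and it was 0.06 by limma on TPM (0.874). The tables listed 8 transcripts of Cldn12, and the share of the main one, Cldn12-201, ran from 0% to 75.38% between libraries.

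Cldn4 moved the other way. It encodes a claudin of the blastocyst's outer epithelium and of many adult epithelia and lies on the reverse strand of chromosome 5 (134945119 to 134946934). Its level in WT cells was 43.6 and 42.65 CPM at 0 h, 32.15 and 29.9 CPM at 24 h, and 27.3 and 20.8 CPM at 48 h. KO cells had 39.3 and 42.98 CPM, then 32.7 and 32.8 CPM, then 23.4 and 27.1 CPM, again with no overlap between times. Cldn4 was 1.8-fold lower at 48 h than at 0 h in WT (log2 fold change -0.85, standard error 0.144, adjusted p = 0.000185) and 1.63-fold lower in KO cells (-0.71, standard error 0.144, adjusted p = 0.000922), calls that held under all 19 alternatives. At 24 h the fall was called in WT (-0.48, adjusted p = 0.0285), but not without any 1 of the 4 WT libraries at 0 h and 24 h (adjusted p of 0.103 to 0.178), with average transcript lengths as offsets (0.128) or by limma on TPM (0.144). In KO cells the log2 fold change of -0.33 was not called (adjusted p = 0.126). The summed trophectoderm markers, a lineage that expresses Cldn4, went from 25.9 and 27.5 TPM at 0 h to 16.2 and 19.9 TPM at 48 h in WT and from 18.4 and 20 TPM to 18.1 and 19.1 TPM in KO cells. Within this sum Tfap2c fell (-2.19 in WT and -1.73 in KO cells, adjusted p = 4.52e-08 and 9.92e-07) and Eomes rose (1.39 and 1.52, adjusted p = 0.000111 and 3.7e-05), and the part of these markers in the fall of Cldn4 was not tested.

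**Figure D2:**
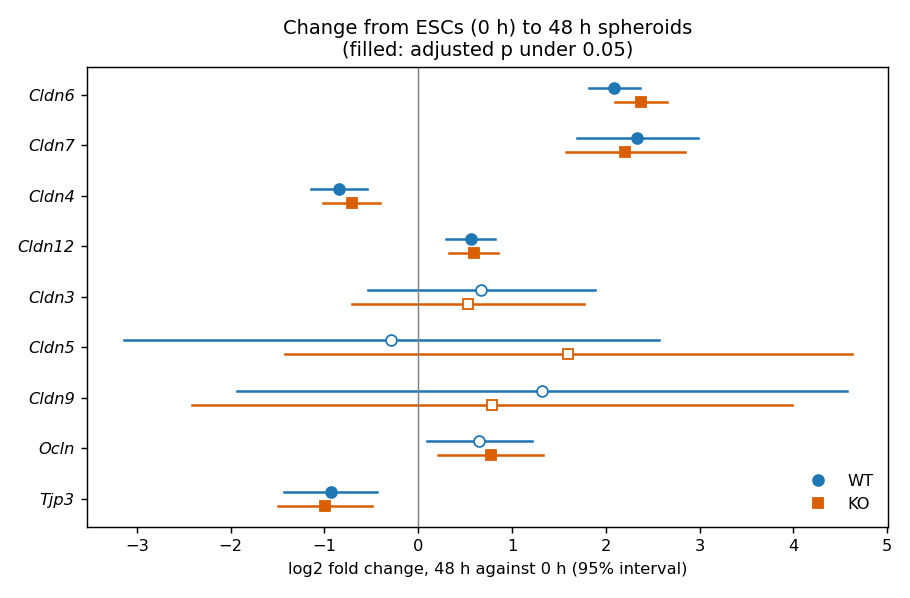
Log2 fold change from 0 h to 48 h (x axis) of each gene (y axis) in WT (circles) and CIDEA KO cells (squares), with 95% intervals from the edgeR fit and filled symbols where the adjusted p was under 0.05. Cldn6 and Cldn7 lie near 2 in both genotypes, Cldn4 and Tjp3 lie below 0, and the intervals of Cldn3, Cldn5 and Cldn9 span 0.

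The opposite courses of Cldn6 and Cldn4 changed which claudin was the most abundant. Compared per length, Cldn4 led at 0 h with 36.3 ± 0.30 TPM (SD, n = 2) in WT and 35.7 ± 2.39 TPM in KO cells, and Cldn6 stood at 17.5 ± 0.12 and 16.7 ± 0.51 TPM. By 24 h Cldn6 led with 43.9 ± 0.67 TPM in WT and 45.7 ± 2.91 TPM in KO cells. At 48 h Cldn6 was at 73.2 ± 1.67 and 82.4 ± 13.5 TPM, Cldn7 was next with 31.3 ± 7.81 and 36.4 ± 2.09 TPM, and Cldn4 had come down to 20.6 ± 4.14 and 21.2 ± 2.38 TPM, level with Cldn12 within the spread of their libraries.

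Within each library, the ratio of Cldn6 to Cldn4 in TPM was 0.482 and 0.483 in WT ESCs, 1.542 and 1.695 at 24 h, and 3.16 and 4.074 at 48 h. In KO cells it was 0.503 and 0.438, then 1.676 and 1.465, then 3.739 and 4.023. The ranges of the 3 times were apart and those of the genotypes overlapped at each time, and the ratio was given no test of its own. Summed over the 33 claudin genes in the tables, claudin mRNA went from 82.3 ± 0.42 TPM (SD, n = 2) to 117.8 ± 1.41 and 161.2 ± 21.1 TPM in WT, and from 87.65 ± 1.77 to 119.85 ± 18.0 and 167.95 ± 21.1 TPM in KO cells. The share of Cldn6 in this sum went from 21.3 ± 0.28% to 45.7 ± 4.95% in WT and from 19.1 ± 0.14% to 48.95 ± 1.91% in KO cells. That of Cldn4 went from 44.1 ± 0.57% to 12.75 ± 0.92% in WT and from 40.7 ± 3.54% to 12.6 ± 0.14% in KO cells.

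The 7 claudins described here held 94.1% to 99.3% of all claudin TPM in every library. Of the 26 claudin genes outside the list, 13 had no counts in any library and 21 never exceeded 1 TPM. The highest single value was that of Cldn20, 7.06 TPM in replicate 1 of WT spheroids at 48 h, where replicate 2 had 0.332 TPM. Cldn2, a pore-forming claudin, had 0 counts in both KO libraries at 0 h and 22 and 24 counts at 48 h. At 24 h it had 59 and 20 counts in KO cells, the 59 from replicate 1, the library that stood apart. It was called in KO cells at 24 h (adjusted p = 0.0127) and 48 h (adjusted p = 0.0163), and both calls were lost without either KO library at 0 h (adjusted p of 0.097 to 0.112). Neither call of Cldn2 was made by limma on log2(TPM + 1). The 24 h call was also lost with only the groups compared, and the 48 h call with average transcript lengths as offsets. In WT cells Cldn2 had 13 and 0 counts at 0 h and 30 to 63 counts in the spheroids.

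**Figure D3:**
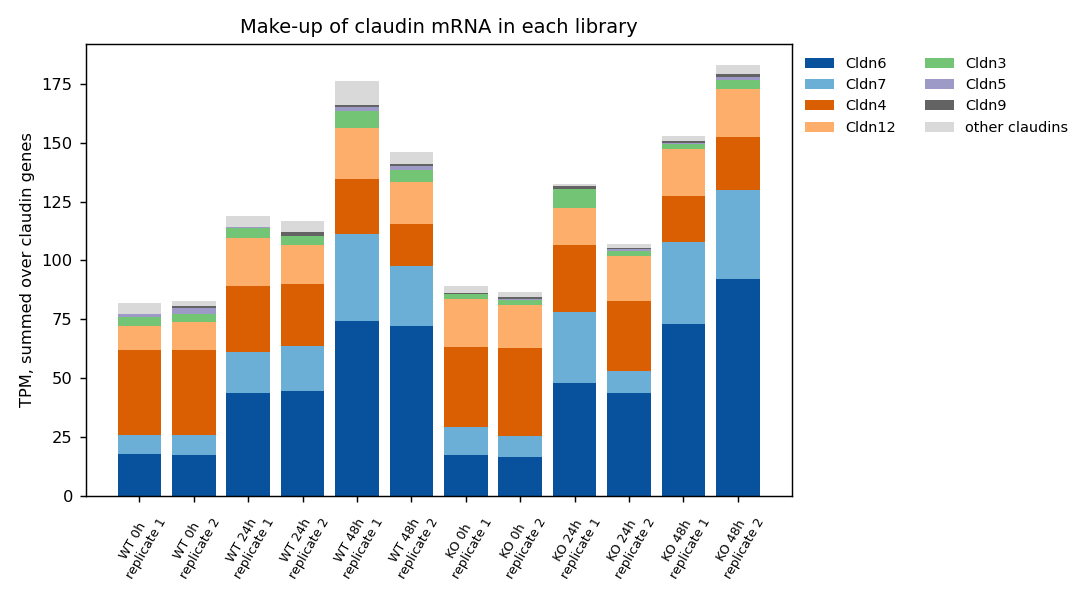
TPM of the claudin genes (y axis) stacked for each of the 12 libraries (x axis), with a colour for each of the 7 listed claudins and grey for the other claudin genes. Cldn6 grows from 16.4 to 17.6 TPM at 0 h to 72.0 to 91.9 TPM at 48 h while the Cldn4 band shrinks.

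Short stretches of the promoters of Cldn6, Cldn7 and Cldn4 are shown because these genes changed most clearly and in opposite directions. They come from the RefSeq windows of 250 bases before to 50 after a gene's start (GRCm38.p6), which matched 8 of the 9 genes, all but Cldn9. The motif letters are in capitals, positions are counted from the start with no position 0, and both strands were searched. Of the copies printed, those of Cldn6 at -40 and -93 and of Cldn7 at -57 overlap annotated exons. Those of Cldn7 at -38 and of Cldn4 at -14 do not, and both Cldn7 stretches come from window 2 of its 2 windows. The letters of the cAMP response element, TGACGTCA, stood in a window of Cldn6 (first base at -40) and in a window of Cldn7 (first base at -38) and of no other listed gene, and 1.79% of all 32851 windows hold them. This motif was added to the search after the sequences had been read.
Cldn6, chr17:23679314-23679343, forward strand: aggtggtccagTGACGTCAttgagacttta
Cldn7, chr11:69965372-69965401, forward strand: tgtcccttcagTGACGTCAggtcactcgac
The E-box letters CAGGTG, which Snail and Zeb repressors bind, stood in 8 of the 13 windows of these 8 genes, from 6 genes (20.21% of all windows), with copies in Cldn4, Cldn6 and Cldn7 alike.
Cldn4, chr5:134946931-134946960, reverse strand: ctttaactgcagCACCTGtggccgcccttt
Cldn6, chr17:23679260-23679289, forward strand: gggaaacgcacgCAGGTGgctatcgccgca
Cldn7, chr11:69965352-69965381, forward strand: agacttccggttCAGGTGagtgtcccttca
In Cldn4 the copy is read on the opposite strand, as CACCTG, and starts at -14. The GC box letters GGGCGG were found in 9 of the 13 windows, from 7 genes (35.66% of all windows) and AACNNGTT, the core bound by Grhl factors, in 1 window, that of Cldn5 (4.2% of all windows). The TATA box letters TATAAA (13.62% of all windows) and the octamer ATTTGCAT (1.74%) were in none of the windows of the 8 genes.

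Tjp3, the only scaffold on the list, lies on the reverse strand of chromosome 10 (81273207 to 81291581), where its end overlaps that of Apba3. In WT cells it was at 16.5 and 16.6 CPM at 0 h, 6.60 and 7.79 CPM at 24 h, and 7.77 and 9.57 CPM at 48 h. KO cells had 13.03 and 12.7 CPM, then 4.71 and 4.94 CPM, then 6.40 and 6.51 CPM. The libraries at 0 h lay above all spheroid libraries of the same genotype. Tjp3 was 2.3-fold lower by 24 h in WT (log2 fold change -1.204, standard error 0.237, adjusted p = 0.00133) and 2.66-fold lower in KO cells (-1.41, standard error 0.241, adjusted p = 0.000265). It remained lower at 48 h, by -0.93 in WT (adjusted p = 0.00608) and -0.99 in KO cells (adjusted p = 0.00371), with no call between 24 h and 48 h. The 48 h call in WT was lost without replicate 1 of the WT spheroids at 48 h (-0.79, adjusted p = 0.104) and with average transcript lengths as offsets (-0.57, adjusted p = 0.355). With those offsets both 24 h calls were lost too. By limma on log2(TPM + 1) the 48 h call in WT (adjusted p = 0.37) and both 24 h calls were lost as well. The KO call at 48 h held under all 19 alternatives. The tables listed 6 transcripts of Tjp3, and the share of Tjp3-201, the main one, in its TPM ran from 0% to 100% between libraries.

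Ocln, on the reverse strand of chromosome 13 (100496507 to 100552718), was called in KO cells only. Its CPM were 7.78 and 7.58 at 0 h, 10.1 and 7.65 at 24 h, and 11.1 and 13.02 at 48 h in WT cells. They were 8.93 and 10.6, then 14.2 and 7.99, then 18.2 and 15.1 in KO cells, the 14.2 from replicate 1, which stood apart. At 48 h both libraries of each genotype were above its 4 other libraries, and at 24 h each genotype overlapped 0 h. The change over 48 h was 0.77 in KO cells (standard error 0.267, adjusted p = 0.0401) and 0.65 in WT (standard error 0.269, adjusted p = 0.0892). The call in KO cells was lost without any 1 of 8 libraries, the WT libraries at 24 h and 48 h and the KO libraries at 0 h and 48 h (adjusted p of 0.0501 to 0.287), while in WT a call appeared without either KO library at 24 h (0.0305 and 0.0265). The KO call was also lost with average transcript lengths as offsets (0.74, adjusted p = 0.345) and by limma on log2(TPM + 1) (0.62, adjusted p = 0.423). In TPM, replicate 1 of WT spheroids at 24 h had 14.3 where replicate 2 had 4.23, and 63.19% of it was assigned to the transcript Ocln-204, which had 0% in every other library.

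Cldn3, Cldn5 and Cldn9 were not called in any comparison. Cldn3, a claudin that tightens the seal, lies 39.3 kb from Cldn4 on chromosome 5 (134986214 to 134987472, forward strand). It was at 3.03 and 2.82 CPM, then 3.39 and 2.64 CPM, then 5.49 and 3.85 CPM in WT cells. KO cells had 1.56 and 1.65 CPM, then 6.03 and 1.62 CPM, then 1.54 and 3.12 CPM. The value of 6.03 CPM, the highest of all, came from replicate 1 of KO spheroids at 24 h, the library with the fewest detected genes. Its change over 48 h was 0.67 in WT (95% interval -0.54 to 1.89, adjusted p = 0.471) and 0.53 in KO cells (-0.70 to 1.77, adjusted p = 0.616).

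Cldn5, the claudin of blood vessel walls, lies on chromosome 16 (18776847 to 18778262, forward strand) and had 0 to 64 counts per library. In WT cells it had 36 and 64 counts at 0 h, 7 and 8 at 24 h, and 35 and 55 at 48 h, so both 24 h libraries were low. In KO cells it had 3 and 10 counts, then 0 and 19, then 16 and 28, the 0 from replicate 1, which stood apart. The difference of 24 h from 0 h in WT was large but imprecise and not called (log2 fold change -2.92, 95% interval -6.03 to 0.19, adjusted p = 0.222). Of the endothelial markers, Emcn stayed at 0 and Cdh5 near 0, while Pecam1 was lower at 24 h in WT (-0.32, adjusted p = 0.0248) and its part in the values of Cldn5 was not tested.

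Cldn9 lies tail to tail with Cldn6 on chromosome 17 (23682584 to 23684026, reverse strand), 137 bases away. It had 0 and 21 counts at 0 h, 2 and 48 at 24 h, and 25 and 33 at 48 h in WT. In KO cells it had 13 and 20, then 43 and 14, then 23 and 40 counts, the 43 from replicate 1, which stood apart. The 2 WT libraries of 0 h, and those of 24 h, were far apart from each other, and the change of Cldn9 over 48 h was 1.32 in WT (95% interval -1.93 to 4.58) and 0.79 in KO cells (-2.41 to 3.98), so that these libraries show neither a rise like that of Cldn6 nor its absence. Cldn6 and Cldn9 share 7 stretches of 31 bases, 0.407% and 0.495% of those in each gene, and none of the 9 genes shared more than 0.495% with other genes. Whether the counting of these stranded libraries used the strand is not given in the sources used here, so reads from the overlap of Tjp3 and Apba3 cannot be assigned with certainty.

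At the level of the list, 5 genes were called in WT between 0 h and 24 h (Cldn6, Cldn7 and Cldn12 higher, Cldn4 and Tjp3 lower), beside 15% of all genes (7.54% higher and 7.47% lower), and 3 in KO cells (Cldn6 and Cldn7 higher, Tjp3 lower), beside 18.6% (9.24% higher and 9.33% lower). From 24 h to 48 h Cldn6 and Cldn7 were called as higher in each genotype, beside 8.14% of all genes in WT (3.28% higher and 4.86% lower) and 9.95% in KO cells (4.57% higher and 5.37% lower). Over the 12 libraries, and as a description only since all share the time course, log2 CPM of Cldn6 had a Pearson correlation of 0.941 with Cldn7, 0.899 with Cldn12, and -0.92 with Cldn4. Cldn3 and Cldn4 had -0.249. Of the genes whose log2 CPM averaged 1 or more, those most like Cldn6 were Pim2 (0.99), the de novo DNA methyltransferase Dnmt3b (0.99) and Pcdh1 (0.988). For Cldn7 they were Trp53bp1 (0.977), Fzd6 (0.971) and Fads2 (0.971), for Cldn4 they were Zbtb34, Ahnak and Sephs2 (0.963 each), and for Tjp3 they were Cstb (0.989), Ephb3 (0.981) and Klhl24 (0.979). Slc39a10 (0.973) and Car2 (0.971) were most like Cldn12. The likeness was weaker for Ocln (Klhdc2 at 0.906, Zswim4 at 0.895 and Micu2 at 0.889) and for the low genes Cldn3 (Cmss1 at 0.941, Spns2 at 0.887, Dyrk3 at 0.873), Cldn5 (Rimkla at 0.903, Myo1d at 0.856, Clcn4 at 0.853) and Cldn9 (Ccnj at 0.922, Lif at 0.915, Ripk2 at 0.879).

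The nearest tested genes on either side of Cldn6 and Cldn7 were not called over 48 h in either genotype. Tnfrsf12a, 1.8 kb from Cldn6, was at 0.85 in WT and 0.78 in KO cells (adjusted p = 0.0883 and 0.117), and Elp5, 0.3 kb from Cldn7, was at 0.05 and 0.07. Mettl27, 2.5 kb from Cldn4, was at -0.07 and -0.62 (adjusted p = 0.884 and 0.0549), and Apba3 was at 0.04 and -0.31 where Tjp3, which it overlaps, fell. On the other side of Tjp3, 1.4 kb away, Pip5k1c was lower in KO cells (-0.46, adjusted p = 0.00576) and at -0.21 in WT (0.217). Ocln has its relative Marveld2 at a distance of 43.2 kb on the same strand. On the other side of Ocln, 3.9 kb away, Gtf2h2 was called in WT (0.44, adjusted p = 0.0277).

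The comparison of CIDEA KO with WT cells asked whether the claudins depend on the genotype at any time. None of the 9 genes was called at 0 h, 24 h or 48 h, where 1.26%, 1.46% and 0.671% of all genes were called, and DESeq2 called none either. At an unadjusted p under 0.05 edgeR gave 0, 1 (Tjp3) and 0 genes at the 3 times. For Cldn6, the 95% interval of the log2 difference was -0.42 to 0.13 at 0 h, -0.21 to 0.31 at 24 h and -0.11 to 0.40 at 48 h. For Cldn4 it was -0.365 to 0.23, -0.22 to 0.38 and -0.23 to 0.37, and for Cldn7 it was -0.21 to 1.079, -0.45 to 0.76 and -0.29 to 0.90. The intervals of Cldn5 and Cldn9 reached beyond 3 log2 units, so these data do not bound their differences closely.

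**Figure D4:**
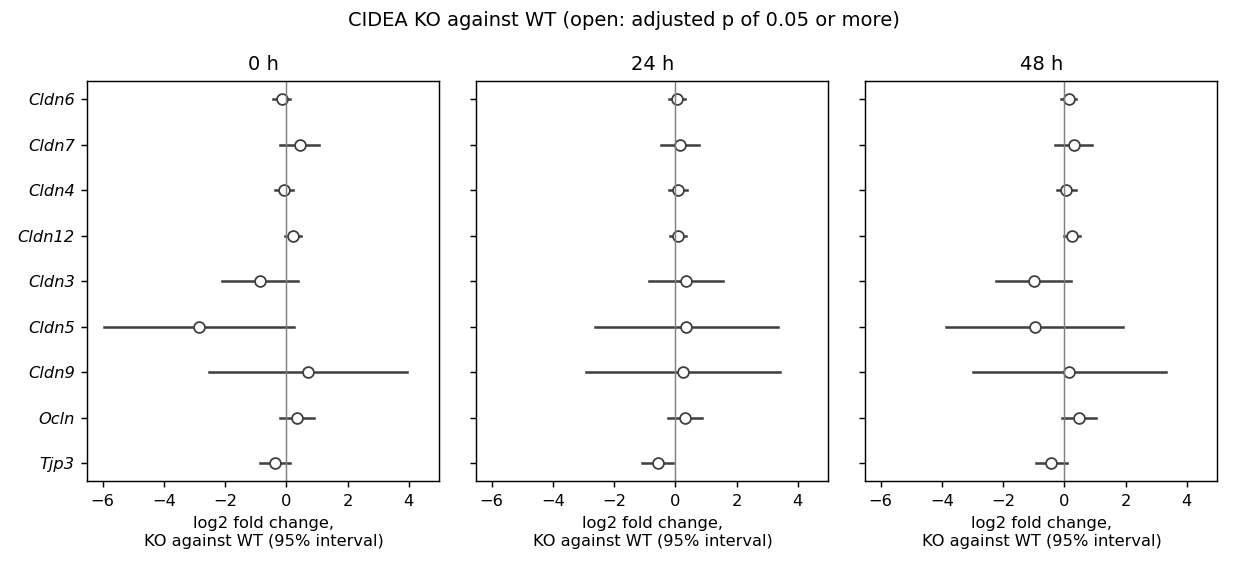
Log2 fold change of CIDEA KO against WT cells (x axis) for each gene (y axis) at 0 h, 24 h and 48 h, with 95% intervals from the edgeR fit, open symbols marking an adjusted p of 0.05 or more. No gene is called at any time, the intervals of Cldn6, Cldn4 and Cldn12 are narrow, and those of Cldn5 and Cldn9 are wide.

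Over all times together, no gene of the list was called by edgeR beside 5.03% of all genes, while 3 had an unadjusted p under 0.05. Tjp3 was closest, lower in KO cells by a log2 fold change of -0.46 (95% interval -0.74 to -0.17, adjusted p = 0.061), and DESeq2 called it (-0.46, adjusted p = 0.0264). Cldn12 was 0.19 higher (0.04 to 0.34, adjusted p = 0.165) and Ocln 0.38 higher (0.06 to 0.70, adjusted p = 0.196). Both KO libraries lay below both WT libraries in CPM of Tjp3 at each of the 3 times, and above them for Cldn12. In TPM, Tjp3 overlapped between genotypes at 0 h, with 8.52 and 7.72 in KO beside 8.93 and 8.07 in WT cells. At 24 h it overlapped too, with 8.495 (replicate 1) and 3.35 TPM in KO beside 5.22 and 5.48 TPM in WT. At 48 h it was lower in KO, at 3.53 and 3.20 TPM beside 5.96 and 5.74 TPM. Scaled for length, Cldn12 stood further apart at 0 h, with 20.5 and 18.3 TPM in KO beside 9.92 and 11.98 TPM in WT ESCs, where it ranked above Cldn6 in KO and below it in WT cells, and in the spheroids the genotypes overlapped. With average transcript lengths as offsets the difference at 0 h was 0.795 (adjusted p = 0.0989), and 0.22 (0.61) without them. In CPM, 3.34% of all genes were lower and 2.9% higher at every time, 6.24% in all. Without replicate 2 of KO spheroids at 24 h, the log2 fold change was 0.45 for Cldn7, 0.50 for Ocln, -0.47 for Tjp3 and -3.22 for Cldn5. The KO library kept at 24 h was then replicate 1, which stood apart. In that fit edgeR made more calls among all genes tested, these genes included.

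Whether the change with time differed between the genotypes was tested by an interaction term. None of the 9 genes was called for 24 h or for 48 h against 0 h, beside 0.0115% and 0.0402% of all genes, by edgeR or DESeq2, and none had an unadjusted p under 0.05. For the rise of Cldn6 over 48 h, the difference of KO from WT cells was 0.29 (95% interval -0.09 to 0.66), and for Cldn7 it was -0.13 (-1.005 to 0.75). For the fall of Cldn4 it was 0.14 (-0.29 to 0.56).

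The rest of the tight junction was read from a list of 52 further genes (other claudins, other membrane proteins, and scaffolds), of which 37 passed the filter. From 0 h to 48 h, 13 rose and 5 fell in WT cells and 12 rose and 4 fell in KO cells, with median log2 fold changes of 0.50 and 0.24. Of all genes, 11.1% were called higher and 12.5% lower in WT, and 12.1% and 12.8% in KO cells. With average transcript lengths as offsets the list's WT counts were 8 and 3 and its KO counts 7 and 4. Calls among all genes then fell from 4118 to 2502 in WT and from 4348 to 2662 in KO cells. Fewer listed genes were called as higher in WT without replicate 2 of WT ESCs or replicate 1 of WT spheroids at 48 h. Fewer of all genes were called in WT then as well. The same held in KO cells without either KO library at 0 h or without replicate 1 at 48 h. Marveld3 and Marveld2 (tricellulin), relatives of Ocln, changed by 1.99 and 1.38 in WT (adjusted p = 0.011 and 0.032), and Marveld2 by 1.66 in KO cells (adjusted p = 0.01), where Marveld3 was at 0.96 (0.221). The WT call of Marveld3 was lost without replicate 1 at 0 h (adjusted p = 0.128) or replicate 1 at 48 h (0.114). For Marveld2 the WT call was lost without replicate 2 at 0 h (0.286), replicate 1 at 48 h (0.268) or replicate 1 of KO spheroids at 48 h (0.0522), and the KO call without either KO library at 0 h (0.114 and 0.0509) or replicate 1 at 48 h (0.191). Neither call of Marveld2 was made with offsets (0.0798 in WT and 0.0517 in KO cells) or by limma on TPM (0.0813 and 0.0598), nor the WT call with only the groups compared (0.0608).

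Cgnl1 and Cgn, the cingulins that tie the junction to myosin, rose by 1.45 and 1.15 in WT and by 1.67 and 1.76 in KO cells (adjusted p of 1.44e-06 or below). F11r (JAM-A) rose by 0.85 and 1.31, and Jam2 showed the largest fall of the list, -2.13 in WT and -2.21 in KO cells. The mean of Ildr1 went from 34.3 to 14.1 CPM in WT and from 30.9 to 14.8 CPM in KO cells. For Amotl2 it went from 53.7 to 28.0 CPM and from 43.3 to 30.6 CPM. Tjp1 (ZO-1), a scaffold related to Tjp3, stood at 36.3 to 49.4 TPM over the libraries. It was 0.24 higher at 48 h than at 0 h in WT (adjusted p = 0.038) and at -0.02 in KO cells (0.907). Its WT call was not firm, being lost without any 1 of the 6 WT libraries (adjusted p of 0.0544 to 0.155), without the low-count filter (0.0528), with offsets (0.723) and by limma on TPM (0.643).

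A second list held 21 regulators of epithelial identity and partners of claudins, all of which were tested. Of these, 7 rose and 3 fell over 48 h in WT, and 8 rose and 4 fell in KO cells, beside 11.1% of all genes higher and 12.5% lower in WT and 12.1% and 12.8% in KO cells. Grhl2, a transcription factor that activates epithelial junction genes, rose 5.55-fold in WT and 13.3-fold in KO cells (log2 fold change 2.47 and 3.73). Esrp1, an epithelial splicing factor, rose by 2.03 and 2.34, Cdh1 (E-cadherin) by 1.095 and 1.31, and Epcam by 1.28 and 1.27. Klf5 fell by 1.85 and 2.39, and Zeb1, a repressor of epithelial genes, fell by 1.48 and 2.06.

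Between the genotypes, 2.7%, 5.4% and 2.7% of the 37 further tight junction genes were called at 0 h, 24 h and 48 h. Of the 21 regulators and partners it was 4.8%, 0% and 9.5%, and of all genes 1.26%, 1.46% and 0.671%. Over all times together it was 8.1% and 19.0% of the 2 lists, beside 5.03% of all genes. Cgn was lower in KO cells at 0 h (-0.72, adjusted p = 0.00608), a call lost without replicate 1 of WT or of KO ESCs (0.127 and 0.151). Cgn was also lower at 24 h (-0.54, adjusted p = 0.0383), a call lost without any 1 WT library at 24 h or 48 h or replicate 1 of KO ESCs (0.05 to 0.247). Neither was called with offsets (0.193 and 0.3), by limma on TPM or with only the groups compared (0.0573 and 0.309). Jam2 was higher in KO spheroids at 24 h (0.59, adjusted p = 0.000945), which of 19 alternatives only limma on TPM did not call.

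At 48 h F11r was higher in KO spheroids (0.46, adjusted p = 0.0363), but not without any 1 of the 4 libraries at 48 h, the WT libraries at 24 h or the KO libraries at 0 h (0.0613 to 0.427), with offsets (0.193) or by limma on TPM (0.249). St14, a membrane protease that acts on Epcam, was higher (0.56, adjusted p = 0.0299), but not without replicate 1 of WT (0.427) or replicate 1 or 2 of KO spheroids (0.114 and 0.267) at 48 h, with offsets (0.198) or by limma on TPM (0.299). Cdh1 was 0.25 higher (adjusted p = 0.0496) and was not called without any 1 library at 0 h or 48 h or WT library at 24 h (0.0725 to 0.327). The Cdh1 call held under 3 of 19 alternatives, and among those that lost it were the replicate block (0.0602), the size factors of DESeq2 in edgeR (0.0631) and the fit of only the groups compared (0.0899). Grhl2 was lower in KO ESCs at 0 h, with 8.90 and 7.805 CPM beside 19.6 and 19.7 CPM in WT (log2 fold change -1.23, adjusted p = 8.59e-06), which of 19 alternatives only limma on TPM did not call (0.103). At 48 h its ranges overlapped, with 105.3 and 116.7 CPM in KO and 109.0 and 109.3 CPM in WT spheroids. Over all times together, Cgn, Jam2, Cdh1, St14 and Grhl2 were called as well, and so were Cgnl1 (-0.20, adjusted p = 0.0303, lost without any 1 of 7 libraries at 0.0596 to 0.11) and Spint2 (0.18, adjusted p = 0.0426, lost without any 1 of 9 libraries at 0.055 to 0.161). With offsets and by limma on TPM, Cgnl1, Spint2, St14 (0.30, adjusted p = 0.0128) and Cdh1 (0.14, adjusted p = 0.0186) were not called, and limma did not call Cgn or Grhl2. The call of Cdh1 was also lost without the low-count filter (0.0588) and without replicate 1 of WT at 24 h, replicate 2 of WT at 48 h, replicate 1 or 2 of KO ESCs or replicate 1 of KO at 48 h (0.0549 to 0.0774).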

How the data were processed

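mRNA was sequenced from WT and CIDEA KO mouse ESCs and spheroids (12 libraries, 6 groups). Trimmomatic 0.33 and kallisto 0.43.1, named in the submitters' processing notes, were used by the authors for trimming and for quantification per transcript. Their deposited tables give estimated counts (neither depth- nor length-scaled, not always whole), the effective transcript length, and TPM, which kallisto scales to a constant total per library. The transcript set is not given in the sources used here. Of 115270 transcripts, 113580 (98.5%) matched GENCODE M21 (GRCm38). The rest held 0.659% to 0.709% of the estimated counts and were left out. Both units were then summed to 35580 genes and counts rounded, and kallisto's split of reads among transcripts moves TPM more than gene counts.

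The main test was that of edgeR 4.0.16 under R 4.3.3, using TMM scaling, filterByExpr, robust quasi-likelihood dispersions and a mean per group over all 12 libraries. A total of 12 contrasts were tested, with Benjamini-Hochberg adjustment over the 17424 genes and a threshold of 0.05. Replicates of a group differed by a chi-square of 11.6 to 33.9 per degree of freedom, beyond sampling noise. Fits were tested on simulated data. Correlations used log2 CPM with a prior count of 2. Alternatives were DESeq2 1.42.0, edgeR with the size factors of DESeq2 or without the low-count filter, average transcript lengths as offsets, limma 3.58.1 on log2(TPM + 1), the replicate number as a block, only the groups compared, and each library left out.

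The 9 genes and the further lists were chosen with earlier results of these data known, and named genes follow a fixed rule (all 9, the further list by counts, 8 set genes, the 3 largest rises and falls in WT and those called between genotypes). Cldn2, Cldn20 and the TGACGTCA motif were named after their values or letters were seen. A few genes that the rule names are not reported here. Protein sequences were not used here.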

Additional observations from a re-analysis of the deposited data

Results flagged for a closer look

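The rise of Grhl2 differed between the genotypes by the test of the difference itself, an interaction term in edgeR's quasi-likelihood fit. It was larger in CIDEA KO than in WT cells by 1.12 on the log2 scale from 0 h to 24 h (adjusted p = 0.00441) and by 1.26 (1.259) from 0 h to 48 h (adjusted p = 0.00157), and the genotypes were apart at 0 h, where KO ESCs had 8.90 and 7.805 CPM and WT ESCs 19.6 and 19.7 CPM. With average transcript lengths as offsets, neither was called (adjusted p = 0.581 and 0.432), nor by limma on log2(TPM + 1) (0.82 and 0.837). The first was also lost without replicate 1 of WT spheroids at 24 h (adjusted p = 0.0549) or replicate 2 of KO ESCs at 0 h (adjusted p = 0.0772), and in a fit limited to the groups it compares (0.0926). No gene of the claudin list had such a call.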

How the results depend on the processing

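The number of the 9 genes called between times fell when average transcript lengths were offsets and by limma on log2(TPM + 1), which gave the same counts, from 5 to 2 (WT, 24 h against 0 h), from 2 to 1 (WT, 48 h against 24 h), from 3 to 1 (KO, 24 h against 0 h) and from 2 to 1 (KO, 48 h against 24 h). The last was also 1 when the fit held no other groups than those compared. Among all genes tested, calls in these comparisons fell from 2615, 1418, 3236 and 1733 to 1317, 565, 1771 and 823 with offsets. By limma they were 1362, 475, 1617 and 785. From 0 h to 48 h both settings lost the calls of Tjp3 in WT and of Cldn12 and Ocln in KO cells. DESeq2 called 1 gene, Tjp3, between genotypes over all times, where edgeR called 0. Leaving out single libraries gave counts of 2 to 6, 1 to 2 and 4 to 6 in WT (24 h against 0 h, 48 h against 24 h, 48 h against 0 h), 2 to 4, 1 to 3 and 5 to 6 in KO cells, and 0 to 4 between genotypes over all times (4 without replicate 2 of KO spheroids at 24 h). Calls among all genes tested also rose or fell with the library left out. Between genotypes over all times they rose without replicate 2 of KO spheroids at 24 h. These ranges therefore do not set the 9 genes apart from all genes. Over all comparisons and alternatives, 205 counts of the 9 genes stayed within 1.5 times the main one, 20 were lower and 2 higher. The 205 include comparisons between genotypes and interactions in which the main count was 0, could not fall, and stayed 0. All 20 lower counts were between times. The cause of these changes was not tested.

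Replicate numbers did not pair the samples: over 15 pairs of groups the deviations of libraries with the same number had correlations of -0.049 to 0.051. With the number as a block, the counts called between times were 5, 2, 5, 3, 2 and 6 and between genotypes 0, as without it.

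Directions turned only where no call was made. Of KO against WT at 24 h, these were Cldn5 (-0.259 with the block), Cldn7 (-0.124 by limma), Cldn12 (-0.107 with offsets, -0.073 by limma), Ocln (-0.536 and -0.311) and Tjp3 (0.098 and 0.018), and at 48 h Cldn9 (-0.061 with the block). Without single libraries, the log2 fold changes at 24 h ranged from -0.898 to 1.002 for Cldn3, -5.825 to 1.35 for Cldn5, -0.058 to 0.153 for Cldn6, -0.49 to 0.6 for Cldn7, -0.778 to 3.736 for Cldn9 and -0.154 to 0.682 for Ocln. At 0 h they ranged from -0.131 to 0.008 for Cldn4 and -0.281 to 7.231 for Cldn9, and at 48 h from -0.119 to 0.277 for Cldn4, -0.005 to 0.268 for Cldn6 and -0.54 to 0.637 for Cldn9. From 0 h to 48 h they ranged from -0.059 to 0.956 for Cldn3 in KO cells and -0.653 to 0.21 for Cldn5 in WT. Cldn5 and Cldn9 had at most 64 and 48 counts in a library, and replicates could differ widely (0 and 21 counts of Cldn9 in WT ESCs).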
